A study of Mus musculus with 17 samples.

Results

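Mouse pancreatic stellate cells kept for 4 days in medium conditioned by pancreatic tumour organoids were compared with cells kept in control medium. The comparison was taken from the labels and held 9 of the 17 RNA sequencing libraries of the series: 4 in conditioned medium without an inhibitor (called CM here) and 5 in control medium. Both groups shared the strain C57BL/6J, the genotype given as WT, growth in Matrigel (a gel made of basement membrane) and the use of 2 cell lines, PSC4 and PSC5. The CM libraries were PSC4 at passages 23 and 24 and PSC5 at passages 27 and 28. The control libraries were PSC4 at passages 23, 24 and 25 and PSC5 at passages 27 and 28. The titles of the CM libraries carry a code, T6 or T8, whose meaning the labels do not give. In both lines T6 went with replicate 2 and T8 with replicate 1, so code, replicate number and passage cannot be told apart. The remaining 8 libraries, of cells in TGF-beta at 20 ng/mL or in CM with 300 nM neratinib, are in no comparison here but entered the same model, where they shared in the gene filter, the cell line term and the estimate of spread. The lines had been through at least 23 passages, the labels do not say from how many animals they came, and they do not give the genotype of the organoids.

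Pancreatic stellate cells are the vitamin A storing mesenchymal cells of the pancreas. In pancreatic cancer they are a source of cancer-associated fibroblasts, which are often described as contractile, matrix-producing myofibroblasts on one side and inflammatory fibroblasts on the other. The inflammatory state is known for secreted IL-6, LIF, CXCL1, G-CSF and serum amyloid A. IL-1, through NF-kB and a loop of LIF and JAK/STAT signalling, is the described route into it, while TGF-beta favours the contractile state. The series' design text treats control medium as the quiescent reference. The comparison asks how cells in conditioned medium differ from cells in control medium as a whole, and does not single out what in the medium acts.

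Library totals were 24420959 to 26891479 counts in control medium and 26716129 to 29421447 counts in CM, with 16839 to 17405 genes detected per library. Mitochondrial transcripts made up 1.97% to 2.67% of counts in control and 1.78% to 1.98% in CM. The labelled cell type was checked against marker genes. The 12 mesenchymal markers, such as Col1a1, summed to 7106 to 9182 CPM (counts per 1000000 counts of the library after TMM scaling) in control and 7386 to 9159 CPM in CM. Dcn was part of these sums, at 137 to 233 CPM in control and 1015 to 2341 CPM in CM. Dcn and Pdpn were called higher in CM (log2 fold changes 3.03 and 1.03), Vim and S100a4 lower (-0.67 and -1.19). The remaining members were not called, and the sums do not show these opposite moves. Of 9 markers of retinoid-storing stellate cells, Lrat, the enzyme that stores vitamin A as an ester, was at 0 counts in all 9 libraries, and Des, desmin, did not exceed 3.33 CPM. The 24 epithelial markers summed to 78.1 to 96.3 CPM in control and 71.0 to 86.9 CPM in the T8 libraries of CM. In the T6 libraries they summed to 220.2 to 240.2 CPM, and Tff2 was at 0 counts in all 9 libraries. Sox9 made up most of the control sums, at 58.6 to 69.6 CPM, and was lower in CM, at 36.4 to 49.3 CPM. The sums therefore do not show how the other epithelial markers moved. In the T8 libraries PSC4 replicate 1 and PSC5 replicate 1, 4 and 13 of the 24 lay above every control library. The 12 leukocyte markers summed to 14.4 to 17.9 CPM in control and 27.1 to 53.3 CPM in CM. Cd14 made up most of that sum (23.3 to 49.9 CPM in CM), while Adgre1, Tyrobp and Spi1 were at 0 counts in all 9 libraries. The 9 endothelial markers summed to 4.42 to 8.51 CPM in control and 2.68 to 5.61 CPM in CM, with Cldn5 at 0 counts, and the 7 mesothelial markers to 5.78 to 37.4 CPM and 37.7 to 77.3 CPM.

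The replicate 1 libraries labelled PSC4 stood with PSC5 and not with the other PSC4 libraries. After removal of group means over all 17 libraries, the first component of the remaining variation (38.8%) placed PSC4 replicates 2 and 3 at -49.2 to -30.1, the 3 libraries labelled PSC4 replicate 1 at 18.4 to 35.3 and PSC5 at 2.2 to 37.8. Within the 9 libraries compared here, the first principal component (38.6% of variance) separated control at -47.5 to -13.95 from CM at 16.6 to 51.1. The second (31.8%) had the control libraries PSC4 replicate 1, PSC5 replicate 1 and PSC5 replicate 2 at its top (31.0 to 37.8) and CM PSC4 replicate 2 at its bottom (-55.6). Counts that move by more than 1.5 times when the replicate 1 libraries labelled PSC4 are removed are given with that value beside them.

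**Figure D1:**
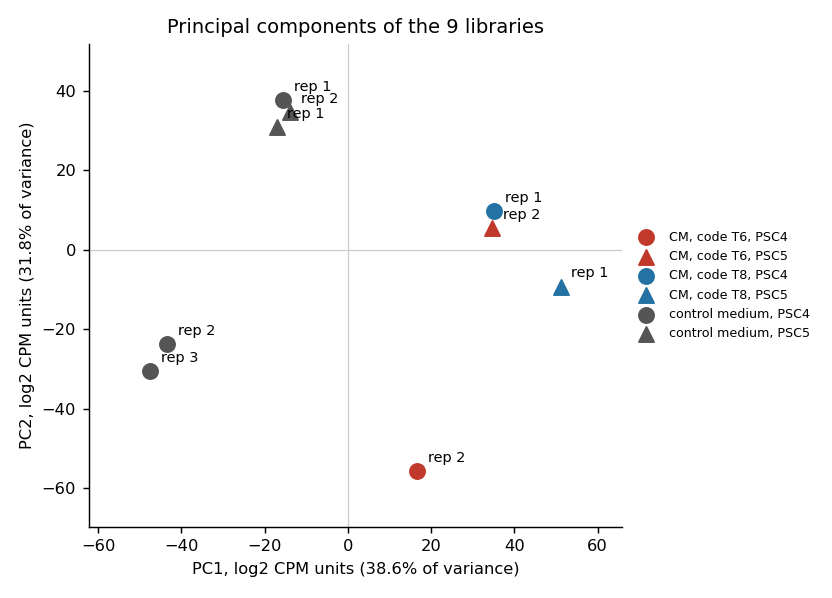
First 2 principal components of log2 CPM in the 9 libraries, in log2 CPM units. Colour gives the medium (grey control, red CM of code T6, blue CM of code T8), circles are PSC4 and triangles PSC5. The 5 control libraries lie at -47.5 to -13.95 on PC1 and the 4 CM libraries at 16.6 to 51.1, and the control library labelled PSC4 rep 1 lies with the PSC5 controls.

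Of 13923 genes tested, 1976 (14.2%) differed between CM and control at an adjusted p under 0.05, 982 higher in CM (7.05%) and 994 lower (7.14%). With upper-quartile factors in place of TMM scaling, 783 genes were called higher and 1307 lower, so that 37.5% of calls were higher against 49.7%. Adjusted p stands throughout for the Benjamini-Hochberg adjusted p of edgeR's quasi-likelihood test over all genes tested, with cell line in the model. A gene is said here to have risen, fallen or been called only where that p was under 0.05. Replicates of a line differ in passage number, and the labels do not say more about how separate they were, so the p-values measure the spread between these libraries. Called differences had a median size of 0.58 on the log2 scale, and 557 genes differed by at least 1 log2 unit, 278 higher and 279 lower. In 2750 genes (19.8%) no CM library overlapped any control library, of which 1578 were called and 1172 were not. In bulk RNA, fewer cells expressing a gene and less RNA per cell cannot be told apart. The count rested heavily on single libraries: 801 genes were called on leaving out CM PSC5 replicate 1, and 1269 on leaving out CM PSC4 replicate 2. It was 1204 and 1219 on leaving out control PSC5 replicates 1 and 2 in turn. With the replicate number within each line as a block, 3240 genes were called, among them 1950 of the 1976, all in the same direction.

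**Figure D2:**
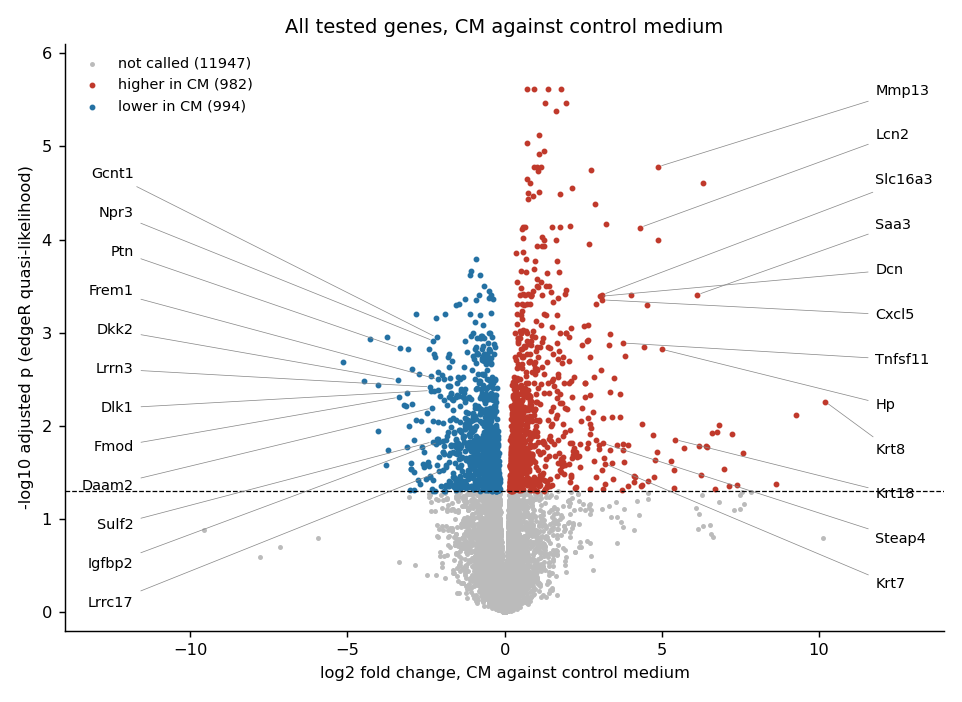
Log2 fold change of CM against control medium (x axis) and -log10 of the edgeR adjusted p (y axis) for the 13923 genes tested, red where higher in CM (982) and blue where lower (994). The dashed line is the threshold of 0.05, and the 12 largest rises and 12 largest falls among well expressed, non-overlapping genes are named, from Krt8 at 10.21, a fitted value against a control group near 0 counts, to Dkk2 at -3.40.

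Genes of the acute phase list, secreted and metal-handling proteins best known from the liver's response to inflammation, were among the largest rises. Of its 13 tested members 9 rose and 0 fell, with a median log2 fold change of 2.20 against -0.00 over all genes tested. Over all genes tested 7.05% rose and 7.14% fell, the shares to set beside the counts of this list and of those below. In what follows, values of the 5 control libraries are in the order PSC4 replicates 1, 2 and 3, then PSC5 replicates 1 and 2, and those of the 4 CM libraries in the order PSC4 replicates 1 and 2, then PSC5 replicates 1 and 2. Saa3, the serum amyloid A of fibroblasts and macrophages (chr7:46711998-46715700 on GRCm38, minus strand), was at 17.01, 75.98, 139.98, 11.4 and 17.3 CPM in control and 2594, 3195, 4888 and 1110.1 CPM in CM. Every CM library lay far above the highest control, and the control libraries themselves ran lower in PSC5 and in the library labelled PSC4 replicate 1. The fitted difference was 70.3-fold (log2 fold change 6.14 ± 0.82 SE, adjusted p = 0.000391), or 46.4-fold on leaving out CM PSC5 replicate 1 and 107-fold on leaving out control PSC4 replicate 3. Hp, haptoglobin (chr8:109575128-109579172), was at 7.99, 32.4, 60.2, 4.63 and 9.15 CPM in control and 350.3, 908, 843 and 206 CPM in CM (log2 fold change 5.00 ± 0.82 SE, adjusted p = 0.00150), with no overlap. Lcn2, the siderophore-binding lipocalin 2 (chr2:32384633-32388252), was at 1.23, 4.65, 5.22, 0.934 and 2.55 CPM in control and 44.6, 57.3, 101 and 27.03 CPM in CM (log2 fold change 4.32 ± 0.47 SE, adjusted p = 7.42e-05). Each CM library again stood above each control library. In CM PSC4 replicate 1 the 24 epithelial markers summed to 71.0 CPM, under the lowest control sum of 78.1 CPM. Both sums consist mostly of Sox9, at 58.6 to 69.6 CPM in control and 46.3 CPM in that library. Of the 24 markers 4 (Krt7, Krt8, Krt18 and Esrp1) lay above every control library there. In CM PSC4 replicate 2, CM PSC5 replicate 1 and CM PSC5 replicate 2 those above every control numbered 20, 13 and 19. The part of epithelial RNA in the acute phase values was not tested.

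The list's other members covered a wide range of levels. Steap4, a metalloreductase, was at 3.18, 20.2, 20.7, 2.62 and 2.23 CPM in control and 42.8, 121, 57.3 and 25.6 CPM in CM (log2 fold change 3.14 ± 0.76 SE, adjusted p = 0.0154). Its call was lost on leaving out CM PSC5 replicate 1 (adjusted p = 0.0518). Saa1 was at or under 3 counts in every control library and at 0.374, 1.16, 0.880 and 0.302 CPM in CM, at least 5.70-fold higher, taking the largest value that 3 counts have in a control library as its floor. Cp, ceruloplasmin, was at 125 ± 23.2 CPM in control (SD, n = 5) and 586 ± 219.7 CPM in CM (SD, n = 4). Slc39a14, the zinc and iron importer ZIP14, was at 76.2 ± 8.71 and 235 ± 67.1 CPM, and both rose. Serpina3g and Saa2 were the other members that rose, by 1.19 ± 0.29 and 3.13 ± 0.95 on the log2 scale, and the Saa2 call was lost on leaving out any library but CM PSC4 replicate 1 (adjusted p = 0.0566 to 0.134). Saa1, Saa2 and Serpina3g belong to families of near-identical genes between which the authors' quantification may split reads. Not called were Serpina3m, Serpina3n, Lbp and Hpx, at log2 fold changes of 1.67, 1.55, 0.96 and 0.31.

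The promoters of the most raised inflammatory genes are shown to let a reader look at the stretch before their start sites. Of 14 raised genes named from the acute phase, chemokine, IL-6 and IL-1 lists, 11 were matched by symbol to RefSeq promoters (GRCm38.p6), and the 6 of these with the largest fitted rise are printed. Csf3, Hp and Cxcl5 are the others. Each is the 250 bases before the annotated start, 5′ to 3′ on the gene's strand. Capitals mark matches, on either strand, to NF-kB (GGG and TTCC with any 3 bases between them), C/EBP (TTGCNNAA), STAT (TTCNNNGAA), the CArG box, ISRE (GAAA, any 2 bases and GAAA) and the TATA box (TATAAA).
Il1a (chr2:129309973-129310222, minus strand): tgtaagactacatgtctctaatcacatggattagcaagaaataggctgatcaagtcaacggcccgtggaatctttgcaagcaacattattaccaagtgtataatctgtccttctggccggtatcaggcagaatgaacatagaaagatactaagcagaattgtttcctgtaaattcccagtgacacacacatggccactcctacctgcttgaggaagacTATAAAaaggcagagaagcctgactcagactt
Saa3 (chr7:46715677-46715926, minus strand): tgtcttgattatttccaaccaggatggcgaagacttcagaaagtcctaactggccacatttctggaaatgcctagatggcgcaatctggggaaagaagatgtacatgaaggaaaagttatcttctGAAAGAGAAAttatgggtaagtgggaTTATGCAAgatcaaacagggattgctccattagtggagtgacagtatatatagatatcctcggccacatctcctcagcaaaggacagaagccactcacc
Saa1 (chr7:46742981-46743230, minus strand): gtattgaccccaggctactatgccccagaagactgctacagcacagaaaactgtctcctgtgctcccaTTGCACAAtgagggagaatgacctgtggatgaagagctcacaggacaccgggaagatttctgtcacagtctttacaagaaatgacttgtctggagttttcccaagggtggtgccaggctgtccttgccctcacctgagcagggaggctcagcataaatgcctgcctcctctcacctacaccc
Lcn2 (chr2:32387740-32387989, minus strand): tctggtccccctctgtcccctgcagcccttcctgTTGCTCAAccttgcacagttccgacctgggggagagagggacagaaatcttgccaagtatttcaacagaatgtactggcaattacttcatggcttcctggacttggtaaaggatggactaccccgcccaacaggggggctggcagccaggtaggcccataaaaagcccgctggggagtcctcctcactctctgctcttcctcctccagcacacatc
Steap4 (chr5:7960222-7960471, plus strand): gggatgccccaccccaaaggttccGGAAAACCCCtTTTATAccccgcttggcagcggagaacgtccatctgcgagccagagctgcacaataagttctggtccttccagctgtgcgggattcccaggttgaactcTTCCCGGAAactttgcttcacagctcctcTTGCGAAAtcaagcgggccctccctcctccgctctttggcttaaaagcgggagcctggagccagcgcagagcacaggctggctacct
Cxcl1 (chr5:90890995-90891244, plus strand): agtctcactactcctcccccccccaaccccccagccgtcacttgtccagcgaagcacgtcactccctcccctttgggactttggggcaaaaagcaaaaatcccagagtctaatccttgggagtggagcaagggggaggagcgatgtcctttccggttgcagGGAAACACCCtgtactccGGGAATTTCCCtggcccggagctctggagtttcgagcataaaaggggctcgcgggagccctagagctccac

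A C/EBP match stood in 4 of the 6 windows (Saa3, Saa1, Lcn2 and Steap4), against 9.57% of the 32841 promoter windows of the same length in the table. NF-kB matches stood in 2 of 6 (Cxcl1 and Steap4), against 4.65% of all windows. The Cxcl1 window held 3 of them, of which GGGAATTTCC, starting 71 bases before the start, and GGAATTTCCC, starting 70 bases before it, overlap as opposite-strand readings of 1 stretch. A STAT match stood in 1 window (Steap4; 7.02% of all), an ISRE match in 1 (Saa3; 2.98% of all), a TATA match in 2 (Il1a, 32 to 27 bases before the start, and Steap4; 12.4% of all) and a CArG box in 0 (1.47% of all). These matches are descriptions of letters, were not tested, and the genes were chosen for their rise.

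Chemokines, the secreted attractants of leukocytes, were higher in 10 of 17 tested genes and lower in 1, with a median log2 fold change of 1.31. The count of rises was 6 on leaving out CM PSC4 replicate 2 or CM PSC5 replicate 1. Cxcl1, a neutrophil attractant (chr5:90891241-90893115), was even across the controls at 11.2, 9.51, 9.55, 9.38 and 9.50 CPM and at 87.8, 43.6, 123 and 45.98 CPM in CM. The CM libraries therefore lay apart from the control libraries in both lines (log2 fold change of CM against control 2.90 ± 0.41 SE, adjusted p = 0.000489). Within CM the T8 libraries were above the T6 libraries, a difference that was not called (T6 minus T8 -1.22 ± 0.50 SE, adjusted p = 0.997). Cxcl5, of the same neutrophil-attracting family, was at 12.8, 16.5, 16.8, 12.2 and 17.5 CPM in control and 167, 82.2, 208 and 90.01 CPM in CM (log2 fold change 3.11 ± 0.43 SE, adjusted p = 0.000444). Cxcl3 stayed under 2 CPM in every library and rose by 2.63 ± 0.66 on the log2 scale, a call lost on leaving out CM PSC4 replicate 2, CM PSC5 replicate 1 or control PSC5 replicates 1 or 2 (adjusted p = 0.0521 to 0.0656). Among the CC chemokines, Ccl2, the monocyte attractant, was at 186 ± 12.03 CPM in control and 459.7 ± 103 CPM in CM, and Ccl7 at 62.97 ± 2.20 and 130.3 ± 29.4 CPM, and both rose. Ccl5 and Cxcl10, both known interferon and NF-kB targets, rose by 1.91 ± 0.40 and 1.58 ± 0.30. Cx3cl1, fractalkine, a membrane-bound chemokine, was the member that fell, from 132, 211, 250.2, 127 and 127 CPM in control to 32.8, 65.9, 25.5 and 45.9 CPM in CM (log2 fold change -1.91 ± 0.38 SE, adjusted p = 0.00521). Cxcl12, a chemokine of stromal cells, was not called at a log2 fold change of -0.34.

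**Figure D3:**
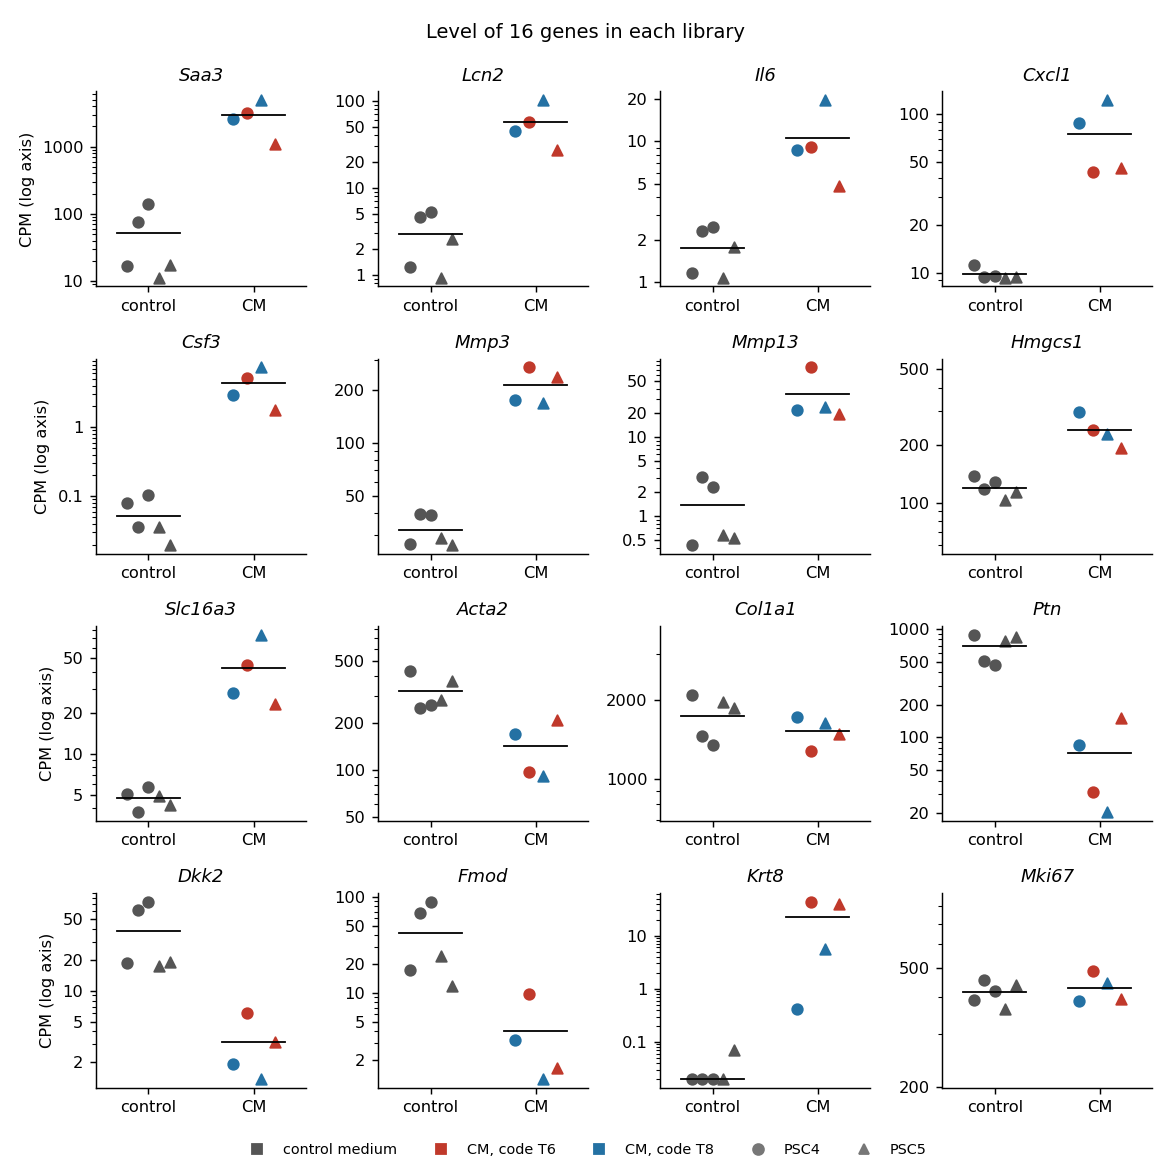
Level of 16 genes in each library, in CPM on log axes; circles are PSC4 and triangles PSC5, grey is control medium, red CM of code T6 and blue CM of code T8, bars are group means and 0 CPM is drawn at 0.02. The inflammatory genes Saa3, Lcn2, Il6, Cxcl1 and Csf3 lie higher in every CM library than in any control library, Ptn, Dkk2, Fmod and Acta2 lie lower, Col1a1 and Mki67 overlap, and Krt8 is highest in the 2 T6 libraries.

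The IL-6 family signals through gp130 and JAK kinases to STAT3, whose targets include its own inhibitor. Of 20 tested members 9 rose and 1 fell (median 0.61), with 3 rises on leaving out CM PSC5 replicate 1 and 5 on leaving out either PSC5 control library. Il6 itself (chr5:30013114-30019981) was at 1.15, 2.29, 2.47, 1.08 and 1.77 CPM in control and 8.73, 9.17, 19.5 and 4.80 CPM in CM. All CM libraries were above all controls, with PSC5 replicate 1 highest (log2 fold change 2.64 ± 0.42 SE, adjusted p = 0.00124). Without that library the log2 fold change was 2.04. Lif, the second gp130 ligand of the inflammatory fibroblast description, was at 19.6, 9.98, 6.66, 17.3 and 20.03 CPM in control and 35.7, 19.3, 51.6 and 27.6 CPM in CM. The groups overlapped, and Lif was not called (log2 fold change 1.13 ± 0.41 SE, adjusted p = 0.0803). It was called with the replicate block (log2 fold change 0.99, adjusted p = 0.00554) and on leaving out control PSC4 replicate 1 (adjusted p = 0.0435). It was also called by DESeq2 (adjusted p = 0.0289), in the 9 libraries alone (0.0390), and with the replicate 1 libraries labelled PSC4 removed (0.00888) or counted with PSC5 (0.00380). Il11, the third ligand, stayed under 3 CPM and rose by 1.25 ± 0.37, a call lost on leaving out any library but CM PSC4 replicate 2, CM PSC5 replicate 2 and control PSC4 replicate 1 (adjusted p = 0.0507 to 0.142). Downstream, Socs3, the feedback inhibitor of STAT3, was at 67.8 ± 9.92 CPM in control and 119 ± 19.4 CPM in CM (log2 fold change 0.80 ± 0.19 SE, adjusted p = 0.0129). Stat3 itself was at 291 ± 24.4 and 418 ± 58.6 CPM (log2 fold change 0.53 ± 0.13 SE, adjusted p = 0.0149). Both were raised, and the Socs3 call was lost on leaving out CM PSC5 replicate 1 (adjusted p = 0.0547) and the Stat3 call on leaving out CM PSC5 replicate 1 (adjusted p = 0.0642). Bcl3, an atypical I-kappa-B protein induced by STAT3 and NF-kB, was at 21.3 to 29.9 CPM in control and 49.4 to 77.1 CPM in CM (log2 fold change 1.31 ± 0.17 SE, adjusted p = 0.000318). The transcription factor Cebpb rose by 1.11 ± 0.18 on the log2 scale. The receptor genes Il6st, Lifr and Osmr were not called, at 0.22, 0.61 and 0.60, and the first of these encodes gp130. Il11ra1, the receptor of Il11, fell from control values of 61.7 to 88.1 CPM to CM values of 47.7 to 58.4 CPM, a call lost on leaving out any library but CM PSC5 replicate 2 and control PSC4 replicate 1 (adjusted p = 0.0635 to 0.145). It overlaps several other genes, and library strandedness is not given in the sources used here.

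IL-1 receptors signal through MyD88 and IRAK kinases to NF-kB. Of 28 tested genes of this route 15 rose and 1 fell, with a median log2 fold change of 0.54. Il1a, the ligand IL-1 alpha, had 0 counts in all 5 control libraries and 0.0340, 0.494, 0.497 and 0.939 CPM in CM. It was thus barely detected in PSC4 replicate 1, and the CM mean was at least 4.12-fold above the floor of 3 counts in a control library (adjusted p = 0.0121). Its counts in CM were 1, 14, 13 and 28, and the part of epithelial RNA in them was not tested. Csf3, which encodes G-CSF, the growth factor of neutrophils (chr11:98701263-98703629), was at or under 3 counts in every control library and at 2.92, 5.22, 7.31 and 1.78 CPM in CM, at least 36.1-fold higher (adjusted p = 2.46e-05). Il33, a nuclear alarmin of the IL-1 family, was at 10.6, 20.9, 25.02, 9.55 and 7.73 CPM in control and 92.4, 65.4, 149.5 and 66.8 CPM in CM (log2 fold change 2.66 ± 0.58 SE, adjusted p = 0.00833), with no overlap. The decoy ligand Il1rn rose by 1.87 ± 0.42, the receptor chain Il1rap by 1.19 ± 0.16 and the IL-33 receptor Il1rl1 by 0.97 ± 0.22, while Il1r1, which binds IL-1 itself, was not called (0.29). The NF-kB subunits Nfkb1, Nfkb2 and Relb rose by 0.57 ± 0.10, 0.51 ± 0.10 and 0.90 ± 0.12. Nfkbia and Nfkbiz, which encode proteins of the I-kappa-B family, rose by 0.48 ± 0.11 and 1.25 ± 0.18. Rel, Tnfaip3, Icam1 and Vcam1 were not called, at 0.22, 0.35, 0.17 and 0.80. Csf1, the macrophage growth factor, fell from control values of 569 to 716 CPM to CM values of 423 to 565 CPM, a call lost on leaving out any library but CM PSC4 replicate 1 and control PSC4 replicate 3 (adjusted p = 0.0587 to 0.141).

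Complement genes followed in part, with 3 of 14 tested rising and 1 falling (median 0.63). The count of rises was 6 with the replicate block and 1 on leaving out CM PSC5 replicate 1. C3, the central component, was at 549, 572, 435, 637 and 594 CPM in control and 2937, 1644, 3505 and 1576 CPM in CM (log2 fold change 2.09 ± 0.51 SE, adjusted p = 0.0154), and its call was lost on leaving out CM PSC5 replicate 1 (adjusted p = 0.0576). All 4 CM libraries nevertheless lay above all 5 controls. Cfb, factor B of the alternative pathway, went from control values of 8.35 to 29.9 CPM to CM values of 63.8 to 228 CPM (log2 fold change 3.00 ± 0.76 SE, adjusted p = 0.0177), a call lost on leaving out CM PSC5 replicate 1 or control PSC5 replicate 2 (adjusted p = 0.0516 to 0.0656). Serping1, the C1 inhibitor, rose from control values of 39.96 to 51.6 CPM to CM values of 128 to 235 CPM (log2 fold change 1.83 ± 0.37 SE, adjusted p = 0.00573). Cd59a, a membrane inhibitor of the terminal complex, fell from control values of 3.35 to 5.67 CPM to CM values of 1.09 to 3.12 CPM (log2 fold change -1.26 ± 0.26 SE, adjusted p = 0.00560).

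Prostaglandin synthesis, interferon-induced genes and antigen presentation showed smaller sets of calls. Ptgs2, cyclooxygenase 2, was at 92.5, 66.5, 50.04, 85.6 and 83.8 CPM in control and 242, 197, 402 and 169 CPM in CM (log2 fold change 1.71 ± 0.31 SE, adjusted p = 0.00295), and Pla2g4a, the phospholipase that frees arachidonic acid, at 76.6 to 80.4 and 95.5 to 134 CPM (log2 fold change 0.51 ± 0.11 SE, adjusted p = 0.00665). The prostacyclin receptor Ptgir rose by 0.90 ± 0.22, a call lost on leaving out CM PSC4 replicate 1, CM PSC5 replicate 1 or control PSC5 replicate 2 (adjusted p = 0.0503 to 0.0701). These were 3 of 15 tested prostaglandin genes, 5 with the block and 5 on leaving out the replicate 1 libraries labelled PSC4, and 0 fell. Of 29 interferon-induced genes 5 rose and 0 fell (median 0.63), or 17.2% called against 14.2% of all genes tested. The count of rises was 3 on leaving out the replicate 1 libraries labelled PSC4. On leaving out CM PSC4 replicate 1, CM PSC5 replicate 1 or control PSC5 replicate 2 the count was 2. On leaving out CM PSC5 replicate 2, control PSC4 replicate 1 or 3, or control PSC5 replicate 1 it was 3. Rsad2, viperin, was at 11.2, 17.5, 8.95, 20.9 and 18.7 CPM in control and 59.8, 22.1, 54.04 and 43.9 CPM in CM (log2 fold change 1.52 ± 0.34 SE, adjusted p = 0.00946), and Oasl1, of the oligoadenylate synthetase family, went from control values of 7.12 to 16.4 CPM to CM values of 22.3 to 31.6 CPM (log2 fold change 1.34 ± 0.23 SE, adjusted p = 0.00208). Gbp2 rose by 0.74 ± 0.20, a call lost on leaving out CM PSC4 replicate 1, CM PSC5 replicate 1 or control PSC5 replicate 2 (adjusted p = 0.0618 to 0.0812), whereas Isg15 and Ifit1 were not called at 0.57 and 0.69. Of 18 genes of MHC class I presentation 4 rose and 0 fell, 8 with the block and 2 on leaving out CM PSC4 replicate 1, CM PSC5 replicate 1 or control PSC5 replicate 2. Tapbp, tapasin, which overlaps Zbtb22, rose from control values of 338 to 403 CPM to CM values of 506 to 668 CPM (log2 fold change 0.68 ± 0.14 SE, adjusted p = 0.00668). H2-T23 rose by 1.11 ± 0.29 and H2-T22 by 0.62 ± 0.18, both members of families of similar genes. The H2-T23 call was lost on leaving out CM PSC4 replicate 1, CM PSC5 replicate 1 or control PSC5 replicate 2 (adjusted p = 0.0504 to 0.0781) and the H2-T22 call on leaving out any library but CM PSC4 replicate 2, CM PSC5 replicate 2 and control PSC4 replicate 2 (adjusted p = 0.0529 to 0.116). H2-K1, H2-D1 and B2m were not called, at 0.65, 0.61 and 0.41.

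Every tested gene of sterol synthesis rose. This list holds the enzymes of the mevalonate route to cholesterol together with SREBP2 and other targets of that factor. All 24 of 24 tested members were called higher, with a median log2 fold change of 1.00. Fdps, farnesyl diphosphate synthase, was at 111, 88.6, 98.7, 90.2 and 98.2 CPM in control and 272, 245, 259 and 221 CPM in CM (log2 fold change 1.37 ± 0.10 SE, adjusted p = 2.41e-06). The spread within each group was small against the gap between them. Msmo1, a demethylation enzyme late in the route, was at 116, 112, 134, 89.3 and 97.7 CPM in control and 288, 279, 245 and 222 CPM in CM (log2 fold change 1.29 ± 0.10 SE, adjusted p = 3.38e-06). Hmgcs1, the HMG-CoA synthase at the start of the route, stood at 119.98 ± 13.2 CPM in control (SD, n = 5) and 241 ± 43.4 CPM in CM (SD, n = 4). Insig1, which retains SREBP in the endoplasmic reticulum, rose by 1.18 ± 0.13 and Srebf2, which encodes SREBP2, by 0.68 ± 0.08. Ebp, the sterol isomerase, had the smallest rise of the list at 0.51 ± 0.14, a call lost on leaving out CM PSC4 replicate 2, CM PSC5 replicate 1, control PSC4 replicate 2 or control PSC5 replicate 2 (adjusted p = 0.0517 to 0.105). Leaving out any 1 library left 23 or 24 members called. Against the same controls, the T6 libraries of CM gave 22 and the T8 libraries 23.

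Glycolytic enzymes and hypoxia-inducible genes were higher in 17 of 28 tested members and lower in 0 (median 0.69), or 1 with the replicate block and on leaving out control PSC4 replicate 2 or 3. Slc16a3, the lactate exporter MCT4 (chr11:120948480-120960868), was at 5.05, 3.75, 5.67, 4.89 and 4.22 CPM in control and 27.8, 44.8, 74.7 and 23.2 CPM in CM. The difference was 8.64-fold (log2 fold change 3.11 ± 0.42 SE, adjusted p = 0.000391). Slc16a3 is among the largest rises, for which no overlap within either line was a condition of the choice. Aldoc, aldolase C, went from control values of 1.11 to 1.62 CPM to CM values of 4.29 to 6.96 CPM (log2 fold change 1.97 ± 0.30 SE, adjusted p = 0.00100), and Ankrd37, a HIF target that overlaps Ufsp2, from control values of 0.647 to 1.39 CPM to CM values of 1.81 to 3.39 CPM (log2 fold change 1.47 ± 0.31 SE, adjusted p = 0.00694). The common enzymes of the pathway rose by less: Hk2 by 1.15 ± 0.17, Ldha by 0.93 ± 0.16, Tpi1 by 0.83 ± 0.17, Pkm by 0.64 ± 0.12 and Gapdh by 0.63 ± 0.14. The glucose importer Slc2a1 rose by 0.82 ± 0.17 and Pdk1, the kinase that inhibits pyruvate dehydrogenase, by 1.34 ± 0.33. The Pdk1 call was lost on leaving out CM PSC4 replicate 2 or CM PSC5 replicate 1 (adjusted p = 0.0568 to 0.0656). Other HIF targets did not pass: Car9 was at 0.43, Egln3 at 0.61, Ndrg1 at -0.12 and Adm at -0.41. Against the same controls, the T6 libraries gave 6 rises and the T8 libraries 16.

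ATF4, the transcription factor of the integrated stress response, has targets in amino acid import and serine synthesis. Of 24 tested 11 rose and 0 fell (median 0.42), with 2 falls under the replicate block and 1 on leaving out control PSC4 replicate 3. The count of rises was 4 on leaving out CM PSC5 replicate 1, 5 on leaving out CM PSC4 replicate 1 and 7 on leaving out either PSC5 control library. Stc2, the secreted stanniocalcin 2, was at 5.29, 8.05, 9.69, 3.41 and 4.15 CPM in control and 19.9, 29.4, 28.7 and 19.4 CPM in CM (log2 fold change 2.10 ± 0.23 SE, adjusted p = 7.08e-05), with no overlap. Trib3, a pseudokinase, rose by 0.80 ± 0.20 and the transcription factor Atf3 by 0.76 ± 0.22. The Trib3 call was lost on leaving out CM PSC4 replicate 1 or CM PSC5 replicate 1 (adjusted p = 0.0580 to 0.0587) and that of Atf3 on leaving out any library but CM PSC5 replicate 2 and control PSC4 replicates 2 and 3 (adjusted p = 0.0525 to 0.0788). Atf4 itself rose by 0.43 ± 0.12, a call lost on leaving out CM PSC4 replicate 1, CM PSC5 replicate 1, control PSC4 replicate 2 or control PSC5 replicates 1 or 2 (adjusted p = 0.0516 to 0.0825). Asns, asparagine synthetase, rose by 0.64 ± 0.15, while Ddit3, Chac1 and Psat1 were not called, at 0.21, 0.44 and 0.23.

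Contractile genes, the hallmark of myofibroblasts, fell or were not called. Of 25 tested 13 fell and 0 rose, with a median log2 fold change of -0.56, and 21 fell with the replicate block. The count of falls was 6 on leaving out CM PSC5 replicate 1 and 8 on leaving out CM PSC4 replicate 2 or control PSC5 replicate 2. Acta2, smooth muscle actin (chr19:34241090-34255590), was at 432, 249.6, 261, 280.2 and 371 CPM in control and 170.3, 97.5, 91.9 and 209.9 CPM in CM. The highest CM library lay under the lowest control (log2 fold change -1.21 ± 0.30 SE, adjusted p = 0.0153), and the call was lost on leaving out CM PSC4 replicate 2 or CM PSC5 replicate 1 (adjusted p = 0.0518 to 0.0523). Tagln, the actin-binding transgelin, was at 239.8, 108, 108, 166 and 203 CPM in control and 102, 53.5, 68.5 and 124 CPM in CM, with overlap between the groups (log2 fold change -0.997 ± 0.29 SE, adjusted p = 0.0338). Its call was lost on leaving out CM PSC4 replicate 2, CM PSC5 replicates 1 or 2, control PSC4 replicate 1 or control PSC5 replicate 2 (adjusted p = 0.0508 to 0.115). The gene overlaps Pcsk7. Lmod1, a leiomodin that starts actin filaments in smooth muscle, was at 15.98, 18.8, 20.2, 18.4 and 17.6 CPM in control and 6.59, 4.02, 4.21 and 7.34 CPM in CM (log2 fold change -1.76 ± 0.35 SE, adjusted p = 0.00492), and Synpo2 at 3.67 to 7.75 and 1.62 to 2.85 CPM (log2 fold change -1.56 ± 0.31 SE, adjusted p = 0.00492). Mylk, the kinase of myosin light chain, fell by 1.34, a call lost on leaving out any library but control PSC4 replicate 1 (adjusted p = 0.0589 to 0.133). Myl9, a regulatory light chain, fell by 1.09 and Vcl, vinculin, by 0.79. Cnn1, Myh11, Des and Srf were not called, at -0.71, -1.48, -0.23 and -0.16.

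TGF-beta signalling genes moved in both directions, 5 higher and 4 lower of 28 tested (median -0.14), with 8 lower on leaving out the replicate 1 libraries labelled PSC4. Rises were 2 on leaving out CM PSC5 replicate 1 and 3 on leaving out CM PSC4 replicate 2 or control PSC5 replicate 1. Falls were 1 on leaving out CM PSC5 replicate 1 and 2 on leaving out either CM PSC4 library. Skil, a SMAD co-repressor, rose from control values of 31.5 to 39.4 CPM to CM values of 54.3 to 92.98 CPM (log2 fold change 0.97 ± 0.17 SE, adjusted p = 0.00208), and the receptor Tgfbr1 from control values of 76.1 to 125 CPM to CM values of 119 to 212 CPM (log2 fold change 0.97 ± 0.20 SE, adjusted p = 0.00665). The BMP-responsive inhibitors Id1, Id2 and Id3 all fell. Id2 was at 56.9, 37.97, 50.7, 44.7 and 49.6 CPM in control and 25.2, 24.2, 25.4 and 25.99 CPM in CM (log2 fold change -0.92 ± 0.21 SE, adjusted p = 0.00995), while Id3 fell by 1.06 and Id1 by 0.92. The Id3 call was lost on leaving out CM PSC4 replicates 1 or 2 or CM PSC5 replicate 1 (adjusted p = 0.0526 to 0.0701) and the Id1 call on leaving out CM PSC5 replicate 1 (adjusted p = 0.0629). Among the ligands Tgfb1 rose by 0.79 ± 0.18, Tgfb3 fell by 0.94 and Tgfb2 was not called (-0.87). The Tgfb1 call was lost on leaving out CM PSC5 replicate 1 (adjusted p = 0.0573) and the Tgfb3 call on leaving out any library but CM PSC5 replicate 2, control PSC4 replicate 1 and control PSC5 replicate 2 (adjusted p = 0.0516 to 0.0963). Tgfb3 overlaps Ttll5. The target genes Ccn2, Thbs1 and Tgfbi were not called, at -0.19, -0.59 and -0.68.

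Collagen genes fell in 8 of 22 tested and rose in 0 (median -0.35). That count was 1 on leaving out CM PSC5 replicate 1 and 3 on leaving out CM PSC4 replicate 1. It was 4 on leaving out CM PSC4 replicate 2, CM PSC5 replicate 2 or control PSC4 replicate 2, and 5 on leaving out either PSC5 control library. With the replicate block 1 collagen gene rose. Col6a3 and its partner chains Col6a1 and Col6a2, which form the beaded filaments of collagen VI, were all called lower. Col6a3 was at 171, 464, 387, 198 and 176 CPM in control and 59.6, 159.9, 44.9 and 61.97 CPM in CM, so that CM PSC4 replicate 2 lay just under the lowest control (log2 fold change -1.71 ± 0.42 SE, adjusted p = 0.0162). Col12a1, a collagen that decorates fibrils, was at 138 to 281 and 51.3 to 102 CPM (log2 fold change -1.52 ± 0.38 SE, adjusted p = 0.0165), and Col15a1 at 2.06 to 6.34 and 0.688 to 1.98 CPM (log2 fold change -1.93 ± 0.62 SE, adjusted p = 0.0497). The Col6a3 call was lost on leaving out CM PSC4 replicate 1 or CM PSC5 replicate 1 (adjusted p = 0.0504 to 0.0639) and the Col12a1 call on leaving out CM PSC4 replicate 1 or CM PSC5 replicate 1 (adjusted p = 0.0538 to 0.0615). The Col6a1 call was lost on leaving out any library but control PSC4 replicate 3 (adjusted p = 0.0526 to 0.132) and the Col15a1 call on leaving out any library but control PSC4 replicate 1 (adjusted p = 0.0741 to 0.160). The fibrillar collagen Col1a1 (chr11:94936224-94953042) was at 2093, 1468, 1353, 1974 and 1865 CPM in control and 1724, 1279.7, 1643 and 1492 CPM in CM. Its groups overlapped and it was not called (log2 fold change -0.21 ± 0.28 SE, adjusted p = 0.670), like Col1a2 (-0.39) and Col3a1 (-0.68).

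The non-collagen matrix held both rises and falls. Of 32 tested proteoglycans and glycoproteins 4 rose and 6 fell (median -0.33). Dcn, decorin, a small leucine-rich proteoglycan that binds collagen fibrils and TGF-beta (chr10:97479609-97518143), was at 209.96, 137, 165, 233 and 159 CPM in control and 1509, 1283, 2341 and 1015 CPM in CM. Each CM library lay above each control library, and CM stood 8.19-fold higher (log2 fold change 3.03 ± 0.41 SE, adjusted p = 0.000407). Spp1, osteopontin, was at 1128, 1478, 1263, 975 and 1084 CPM in control and 3501, 4246, 4314 and 4091 CPM in CM (log2 fold change 1.798 ± 0.13 SE, adjusted p = 2.41e-06), close together within each medium. Tnc, tenascin C, rose from control values of 456 to 529 CPM to CM values of 750.3 to 1401 CPM (log2 fold change 1.07 ± 0.26 SE, adjusted p = 0.0148), a call lost on leaving out CM PSC4 replicate 2 or CM PSC5 replicate 1 (adjusted p = 0.0533 to 0.0583). Fmod and Aspn, small leucine-rich proteoglycans like decorin, fell. Fmod, fibromodulin (chr1:134037254-134048277), was at 17.1, 67.4, 88.5, 23.8 and 11.7 CPM in control and 3.23, 9.77, 1.26 and 1.64 CPM in CM, lower in every CM library than in any control (log2 fold change -3.36 ± 0.66 SE, adjusted p = 0.00492). Aspn, asporin, was at 0.358 to 1.20 CPM in control and at or under 3 counts in every CM library, at least 6.76-fold lower. It overlaps Cenpp. Lum and Bgn, of the same family, were not called (0.37 and 0.17). Fbn2, fibrillin 2, fell by 3.02, with a log2 fold change of -4.02 on leaving out CM PSC4 replicate 1 and -1.97 on leaving out control PSC4 replicate 1. Its control libraries themselves ran from 0.358 to 7.87 CPM, and its call was lost on leaving out any library but CM PSC4 replicate 1 and control PSC4 replicate 2 (adjusted p = 0.0533 to 0.159). Fn1, Postn and Eln were not called, at -0.49, -1.30 and -1.24.

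Matrix metalloproteinases cut such proteins, and 5 of them rose, namely Mmp2, Mmp3, Mmp10, Mmp12 and Mmp13. Mmp13, a collagenase (chr9:7272514-7283331), was at 0.437, 3.11, 2.33, 0.575 and 0.532 CPM in control and 21.9, 75.2, 23.5 and 19.7 CPM in CM. The CM library PSC4 replicate 2 was highest and the other 3 lay close together, all above control (log2 fold change 4.89 ± 0.45 SE, adjusted p = 1.65e-05). Mmp3, stromelysin 1 (chr9:7445822-7455975), was at 26.7, 39.5, 38.9, 28.9 and 26.4 CPM in control and 176, 271, 170.1 and 238 CPM in CM (log2 fold change 2.76 ± 0.26 SE, adjusted p = 1.80e-05), and Mmp10, stromelysin 2, at 0.213 to 0.644 and 2.21 to 4.69 CPM (log2 fold change 3.23 ± 0.35 SE, adjusted p = 6.73e-05). The call of Mmp2 was lost on leaving out CM PSC5 replicate 1 (adjusted p = 0.0573). Mmp9, Mmp11 and Mmp14 were not called (-0.76, -0.29 and -0.06). In all, 6 of 24 proteases and inhibitors rose and 5 fell (median -0.10), with 3 falls on leaving out any CM library but PSC5 replicate 2 or either PSC5 control library. Adamts1, a versican-cleaving protease, fell from control values of 217 to 327 CPM to CM values of 78.8 to 139 CPM (log2 fold change -1.18 ± 0.26 SE, adjusted p = 0.0101) and Adamts12 from control values of 14.01 to 18.5 CPM to CM values of 6.32 to 9.81 CPM (log2 fold change -0.998 ± 0.23 SE, adjusted p = 0.0106). Of the tissue inhibitors of these enzymes, Timp1 rose by 0.81 ± 0.26, Timp2 fell by 0.52 and Timp3 fell from control values of 325 to 775 CPM to CM values of 120.1 to 278 CPM. The Timp1 call was lost on leaving out any library but CM PSC5 replicate 2 (adjusted p = 0.0640 to 0.196) and the Timp3 call on leaving out any library but control PSC4 replicate 1 (adjusted p = 0.0514 to 0.131). Timp3 overlaps Syn3.

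Secreted growth factors divided, with 8 of 41 tested higher and 7 lower (median 0.09), with 4 and 4 on leaving out CM PSC5 replicate 1. Ptn, the heparin-binding pleiotrophin (chr6:36714929-36810220), was at 888, 504, 470.1, 769 and 839 CPM in control and 84.8, 31.4, 20.6 and 149.7 CPM in CM. The highest CM library stood far under the lowest control library (log2 fold change -3.34 ± 0.54 SE, adjusted p = 0.00145). Igfbp2 fell from control values of 16.3 to 31.5 CPM to CM values of 4.13 to 7.78 CPM (log2 fold change -2.09 ± 0.50 SE, adjusted p = 0.0148) and Igfbp5 from control values of 0.390 to 0.916 CPM to CM values of 0.102 to 0.268 CPM (log2 fold change -2.01 ± 0.36 SE, adjusted p = 0.00282). Igfbp3 was at 32.04, 13.2, 13.3, 28.02 and 25.7 CPM in control and 159, 64.8, 201 and 81.2 CPM in CM (log2 fold change 2.43 ± 0.53 SE, adjusted p = 0.00891), so that each CM library lay above each control. These genes encode binding proteins of insulin-like growth factors, and the Igfbp2 call was lost on leaving out CM PSC5 replicate 1 (adjusted p = 0.0574). Fgf10, which acts on epithelium through FGFR2b, was at 10.3 to 17.4 CPM in control and 33.6 to 50.98 CPM in CM (log2 fold change 1.48 ± 0.20 SE, adjusted p = 0.000363), and Fgf7, of the same receptor, rose by 0.93 ± 0.19. Angpt1, the agonist of the endothelial receptor Tie2, rose by 1.42 ± 0.34, a call lost on leaving out CM PSC5 replicate 1 (adjusted p = 0.0580). Its antagonist Angpt2 fell by 1.79 and the lymphatic factor Vegfd by 1.77. Hgf, Igf1 and Fgf2 were not called (0.05, 0.20 and 0.48).

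WNT ligands and antagonists had the lowest median of the 24 lists (-0.59), though 3 of 26 tested fell and 0 rose. The share called was 11.5%, under the 14.2% of all genes tested. With the replicate block 6 fell, and on leaving out the replicate 1 libraries labelled PSC4 6 fell and 1 rose. Dkk2, a secreted antagonist of the WNT co-receptors LRP5 and LRP6 (chr3:132085292-132180304), was at 18.6, 61.97, 73.8, 17.6 and 19.2 CPM in control and 1.94, 6.03, 1.38 and 3.19 CPM in CM. Every CM library was under every control library, and control PSC4 replicates 2 and 3 were highest (log2 fold change -3.40 ± 0.62 SE, adjusted p = 0.00320). Wnt11 fell from control values of 0.858 to 1.72 CPM to CM values of 0.302 to 0.423 CPM (log2 fold change -1.78 ± 0.29 SE, adjusted p = 0.00168) and Wnt2 from control values of 0.144 to 0.916 CPM to CM values of 0 to 0.141 CPM (log2 fold change -2.41 ± 0.66 SE, adjusted p = 0.0267). The Wnt2 call was lost on leaving out any library but control PSC4 replicates 1 and 2 and control PSC5 replicate 1 (adjusted p = 0.0512 to 0.0738). The feedback target Axin2 was not called (-0.88), nor was Wnt5a (-0.55).

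ERBB genes were given a list because the series also used neratinib, a kinase inhibitor of these receptors. Of 13 tested 5 rose and 2 fell (median 0.08), with 3 rises on leaving out CM PSC4 replicate 1. Falls were 0 on leaving out CM PSC5 replicate 1, and 1 on leaving out the replicate 1 libraries labelled PSC4 or on leaving out any other library but control PSC4 replicates 1 and 2. Ereg, epiregulin, was at 23.9, 27.1, 26.5, 21.5 and 24.2 CPM in control and 68.3, 70.1, 119 and 55.9 CPM in CM (log2 fold change 1.66 ± 0.20 SE, adjusted p = 0.000170), and Areg, amphiregulin, at 0.705 to 1.75 and 3.50 to 4.86 CPM (log2 fold change 1.68 ± 0.32 SE, adjusted p = 0.00417), both ligands of EGFR and without overlap. Egfr itself (chr11:16752203-16918158) was at 206, 119, 109, 183 and 209 CPM in control and 317, 215, 365 and 314 CPM in CM. PSC4 replicates 2 and 3 of control were lowest and all CM libraries were above the highest control, PSC4 replicate 2 only just (log2 fold change 0.83 ± 0.18 SE, adjusted p = 0.00827). The feedback inhibitors Errfi1 and Lrig1 rose by 0.49 ± 0.12 and 0.51 ± 0.14, calls lost on leaving out CM PSC4 replicate 1 (adjusted p = 0.0555) for the former and on leaving out CM PSC4 replicate 1, CM PSC5 replicate 1, control PSC4 replicate 3 or control PSC5 replicates 1 or 2 (adjusted p = 0.0501 to 0.0972) for the latter. Nrg1, neuregulin 1, a ligand of ERBB3 and ERBB4, fell from control values of 76.2 to 83.3 CPM to CM values of 41.3 to 59.9 CPM (log2 fold change -0.67 ± 0.19 SE, adjusted p = 0.0298) and Egf from control values of 2.43 to 3.23 CPM to CM values of 1.38 to 2.08 CPM (log2 fold change -0.78 ± 0.19 SE, adjusted p = 0.0162). The Nrg1 call was lost on leaving out any library but CM PSC4 replicate 2 and control PSC4 replicates 1 and 2 (adjusted p = 0.0514 to 0.111) and the Egf call on leaving out CM PSC4 replicate 2 or CM PSC5 replicate 1 (adjusted p = 0.0580 to 0.0585). Erbb2 and Erbb3 were not called (0.08 and 0.60).

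Proliferation genes rose slightly where they were called, 5 of 30 tested higher and 0 lower (median 0.15), or 16.7% called against 14.2% of all genes tested. The count was 11 with the replicate block and 11 on leaving out the replicate 1 libraries labelled PSC4. It was 1 on leaving out CM PSC5 replicate 1, 2 on leaving out CM PSC4 replicate 2 and 3 on leaving out control PSC5 replicate 1. Bub1, a spindle checkpoint kinase, was at 58.1, 59.3, 58.2, 59.2 and 65.1 CPM in control and 73.3, 74.8, 79.6 and 76.4 CPM in CM (log2 fold change 0.34 ± 0.07 SE, adjusted p = 0.00593), with a narrow spread in both media. Aurkb rose by 0.31 ± 0.08 and Top2a, topoisomerase II alpha, by 0.27 ± 0.07. The Aurkb call was lost on leaving out CM PSC4 replicate 2, CM PSC5 replicate 1 or control PSC5 replicate 1 (adjusted p = 0.0540 to 0.0549) and the Top2a call on leaving out CM PSC4 replicate 2 or CM PSC5 replicate 1 (adjusted p = 0.0526 to 0.0535). Mki67, which encodes the Ki-67 antigen, was at 391, 456, 419, 363 and 439 CPM in control and 386, 486, 446 and 394 CPM in CM, overlapping and not called (log2 fold change 0.07 ± 0.10 SE, adjusted p = 0.708).

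Retinoid and lipid genes bear on the vitamin A store of stellate cells, although Lrat was not detected. Of 21 tested 8 rose and 1 fell (median 0.49), or 2 with the replicate block. Rdh10 and Dhrs3, which interconvert retinol and retinal, rose by 1.71 ± 0.23 and 1.69 ± 0.40. Cyp26b1, which degrades retinoic acid, rose from control values of 0.159 to 0.740 CPM to CM values of 1.27 to 4.23 CPM (log2 fold change 2.71 ± 0.63 SE, adjusted p = 0.0123) and the receptor Rarb by 1.55 ± 0.26. Fabp4, a fatty acid binding protein of adipocytes, was at 0.874, 0.751, 0.987, 0.862 and 1.28 CPM in control and 7.24, 9.84, 9.94 and 5.23 CPM in CM (log2 fold change 3.07 ± 0.54 SE, adjusted p = 0.00251), with no overlap. Rbp4 stayed under 2 CPM and rose by 3.00 ± 0.74, a call lost on leaving out CM PSC4 replicate 2 or CM PSC5 replicate 1 (adjusted p = 0.0540 to 0.0645). Stra6, the cellular importer of retinol, fell from control values of 0.215 to 1.35 CPM to CM values of 0.153 to 0.570 CPM, a call lost on leaving out any library but CM PSC5 replicate 2 and control PSC4 replicates 2 and 3 (adjusted p = 0.0865 to 0.161). The retinaldehyde dehydrogenases Aldh1a1, Aldh1a2 and Aldh1a3 were not called (-1.78, -1.18 and -0.90), and neither was Pparg (-0.22).

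**Figure D4:**
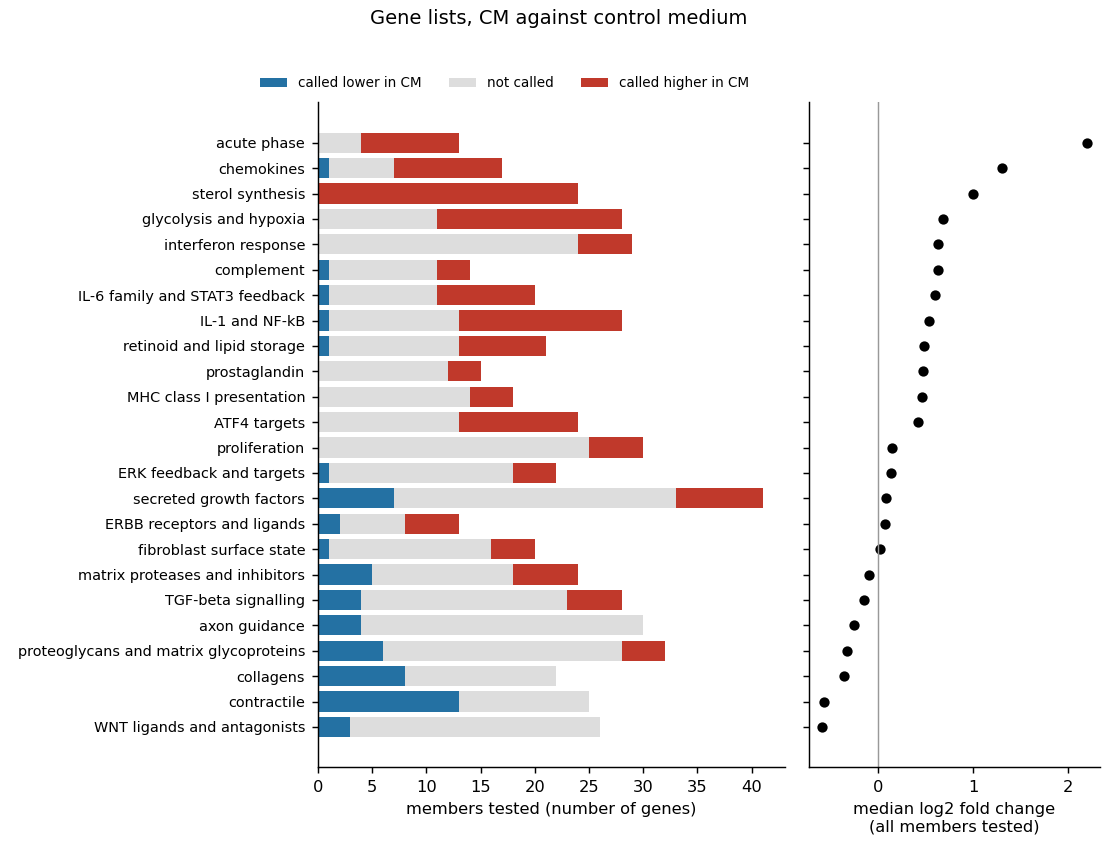
Left, number of tested members of each of the 24 gene lists called lower in CM (blue), not called (grey) and called higher (red); right, median log2 fold change of CM against control over all tested members. Lists are ordered by that median, from WNT ligands and antagonists at -0.59 to the acute phase list at 2.20, and sterol synthesis is the list with every member called.

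Outside the lists, the largest rise of all named genes was in keratins, the intermediate filaments of epithelium. Krt8 had 0 counts in 4 control libraries and 2 counts in PSC5 replicate 2, and stood at 0.408, 43.5, 5.62 and 39.3 CPM in CM. Both T6 libraries were much higher than the T8 libraries. The CM mean was at least 186-fold above the floor of 3 counts in a control library (adjusted p = 0.00552). Its fitted log2 fold change, 10.21, was 8.81 on leaving out CM PSC4 replicate 2 and 12.08 on leaving out control PSC5 replicate 2. Krt18 was at 0.318, 0.572, 0.458, 0.359 and 0.177 CPM in control and 0.849, 34.3, 4.32 and 28.3 CPM in CM (log2 fold change 5.44 ± 1.30 SE, adjusted p = 0.0140). Its call was lost on leaving out CM PSC4 replicate 2 (adjusted p = 0.0774), where its log2 fold change was 4.03. Krt7 was at 1.15, 0.822, 2.11, 1.36 and 1.35 CPM in control and 2.21, 24.2, 6.77 and 17.7 CPM in CM (log2 fold change 3.19 ± 0.87 SE, adjusted p = 0.0255), a call lost on leaving out CM PSC4 replicate 2, control PSC4 replicate 2 or control PSC5 replicates 1 or 2 (adjusted p = 0.0595 to 0.165). Without CM PSC4 replicate 2 the Krt7 log2 fold change was 2.13. Other epithelial markers followed the same libraries: Cdh1, E-cadherin, was at 0.159, 0, 0.106, 0 and 0.0355 CPM in control and 0.102, 13.8, 1.30 and 12.4 CPM in CM. Epcam, an epithelial adhesion molecule, was at 0.0397, 0.107, 0.176, 0 and 0.106 CPM in control and 0.0680, 4.97, 0.459 and 4.86 CPM in CM. Krt8, Krt18 and Krt7 are themselves among the 24 epithelial markers, and the part of epithelial RNA in the keratin result was not tested.

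The other genes among the largest changes came from several families. Tnfsf11, the cytokine RANKL, was at 1.03, 2.75, 3.63, 1.11 and 1.84 CPM in control and 23.5, 27.2, 46.1 and 15.2 CPM in CM, without overlap (log2 fold change 3.76 ± 0.60 SE, adjusted p = 0.00129). Among the falls, Dlk1, a non-canonical Notch ligand of undifferentiated stroma, was at 265, 93.7, 113, 249.6 and 248 CPM in control and 44.1, 16.5, 26.6 and 82.5 CPM in CM (log2 fold change -2.35 ± 0.45 SE, adjusted p = 0.00417). Its control level was lower in PSC4 replicates 2 and 3 than in the other control libraries. Npr3, the clearance receptor of natriuretic peptides, was at 46.7, 38.2, 44.5, 61.6 and 43.9 CPM and 11.99, 8.79, 3.90 and 14.3 CPM (log2 fold change -2.26 ± 0.36 SE, adjusted p = 0.00122), and Gcnt1, an enzyme of O-glycan branching, fell from control values of 16.7 to 32.5 CPM to CM values of 2.45 to 6.30 CPM (log2 fold change -2.17 ± 0.34 SE, adjusted p = 0.00112). Sulf2, which removes sulfate from extracellular heparan sulfate, was at 158, 153, 130.04, 166 and 149.6 CPM and 28.9, 32.3, 10.4 and 50.3 CPM (log2 fold change -2.29 ± 0.55 SE, adjusted p = 0.0148). Its call was lost on leaving out CM PSC5 replicate 1 (adjusted p = 0.0526), and it overlaps Ncoa3. Frem1, a basement membrane protein, fell from control values of 9.02 to 11.98 CPM to CM values of 1.41 to 3.22 CPM and Daam2, a formin, from control values of 10.2 to 21.9 CPM to CM values of 1.61 to 5.26 CPM. Lrrn3, which overlaps Immp2l, fell from control values of 7.83 to 15.9 CPM to CM values of 1.11 to 2.54 CPM, and Lrrc17 fell from control values of 7.94 to 31.5 CPM to CM values of 1.53 to 6.41 CPM, a call lost on leaving out CM PSC4 replicates 1 or 2, CM PSC5 replicate 1 or control PSC4 replicates 2 or 3 (adjusted p = 0.0613 to 0.0936).

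The CM libraries of the 2 codes were also set against the same 5 controls, so the resulting comparisons share their controls. The 2 T6 libraries gave 358 calls (2.57%) and the 2 T8 libraries 1332 (9.57%). The difference between T6 and T8 libraries, tested directly, gave 0 called genes (edgeR, smallest adjusted p = 0.997) and 408 at an unadjusted p under 0.05. Of the named genes, Krt8 and Krt18 had the lowest unadjusted p of that difference, 0.0132 and 0.0156. Krt18 was at 6.37 ± 1.17 in T6 and 2.40 ± 1.30 in T8 (log2 fold change ± SE). Saa3 was at 5.52 ± 0.83 and 6.68 ± 0.90, Il6 at 1.99 ± 0.43 and 3.12 ± 0.43, Cxcl1 at 2.17 ± 0.40 and 3.39 ± 0.39, and Ptn at -3.10 ± 0.74 and -3.61 ± 0.76. None of these differences between codes passed the adjustment, which does not show that the codes act alike.

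**Figure D5:**
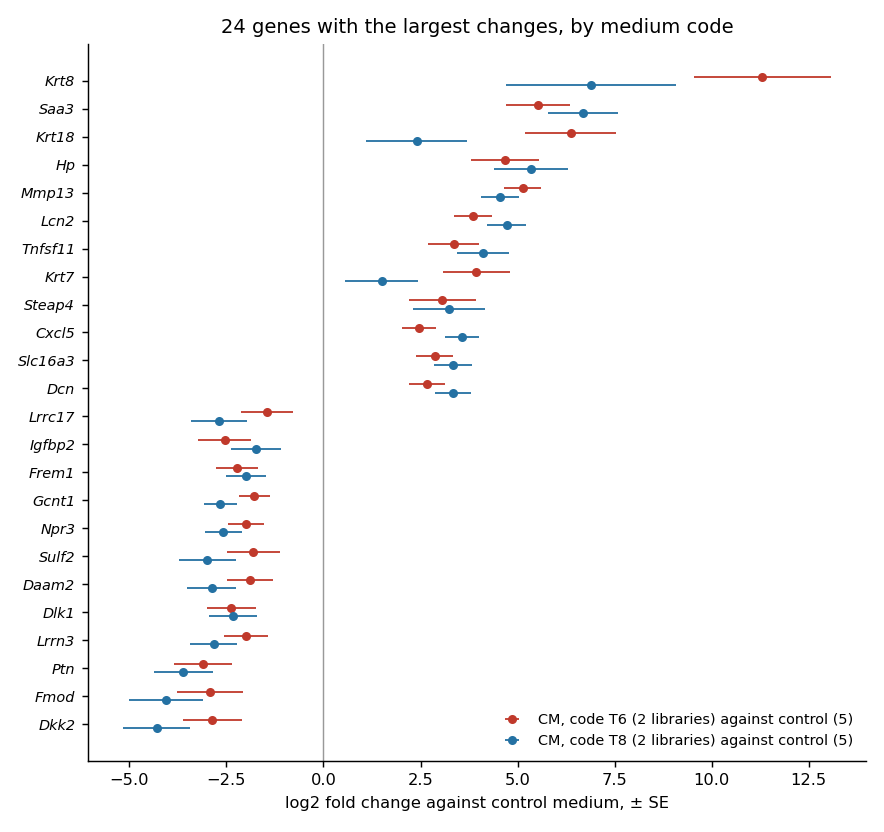
Log2 fold change against the 5 control libraries (x axis, ± SE) for the 12 largest rises and 12 largest falls, separately for the 2 T6 libraries of CM (red) and the 2 T8 libraries (blue). For Krt18 the values are 6.37 ± 1.17 and 2.40 ± 1.30, for Dkk2 -2.86 ± 0.76 and -4.30 ± 0.86, and no gene differed between the codes after adjustment.

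Whether the response differed between the lines was tested as the difference of the CM effects in PSC5 and PSC4. It gave 0 called genes (edgeR, smallest adjusted p = 1.00) and 43 at an unadjusted p under 0.05, and 1 called gene on leaving out control PSC5 replicate 1. Within lines the counts were far lower than in the joint model: PSC4 alone, 2 against 3 libraries, gave 136 called genes, 114 higher and 22 lower, and PSC5 alone, 2 against 2, gave 2, both higher. The replicate 1 libraries labelled PSC4 stand with PSC5, so the line difference as labelled compares mixed sets.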

How the data were processed

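RNA was sequenced from 17 libraries, of which 9 were compared here (CM 4, control 5). Expected counts for each Ensembl gene ID were deposited by the authors, in a file of its own for every library. The submitters' processing notes name Salmon 1.4.0, DESeq 2 and the builds GRCm38 and mm10, with no role given, and library strandedness is not given in the sources used here. Each file lists 35896 gene IDs, 35437 with a symbol. These estimated counts were rounded to whole numbers, and no library total moved by more than 308 counts. Positions are GENCODE's on GRCm38, matched by gene ID.

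The 17 libraries were fitted in 1 model (group and cell line) with edgeR 4.0.16 in R 4.3.3, using TMM factors, filterByExpr by group (minimum count 10, minimum total 15; 13923 genes kept) and the quasi-likelihood test. SE is the log2 fold change divided by the square root of F. CPM uses TMM factors. Where all libraries of a group had at most 3 counts, a fold is a lower bound, the other group's mean over the largest per-library value of 3 counts; the floor covers counting error only. The steps were tested on simulated data drawn without differences between lines or replicates, so that test does not cover such differences.

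Genes named are the 12 largest rises and 12 largest falls among called genes whose higher group averaged 10 CPM or more and whose groups did not overlap within either line, up to 3 raised and 3 lowered members of each of 24 lists, and 12 genes named whatever their values: Il6, Lif, Cxcl1, Csf3, Il1a, Saa3, Acta2, Tagln, Col1a1, Ptn, Mki67 and Egfr. Some genes that this rule names are not reported here. Other list members mentioned were chosen after their values were seen. The comparison, the members and the lists were chosen with earlier results of these data known. The main model did not pair the samples, and its adjusted p-values are unpaired. Only the replicate block, an alternative fit, took the replicate numbers to pair them. The 4 pairs of CM and control libraries of the same line and number share a passage in the labels. Their deviations from group means, which still hold any difference between lines, correlated at 0.12 to 0.60. Pairs of the same line with another number correlated at -0.54 to 0.61, some as closely as the matched pairs. Replicates of 1 group differed by at least 7.5 times the counting noise (chi-square per degree of freedom), so none was counted as a duplicate. Alternatives were other normalisations, filters, DESeq2 1.42.0, the replicate block, subsets and leaving out each library.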

Additional observations from a re-analysis of the deposited data

Results flagged for a closer look

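In 7 of 224 sets of libraries (112 genes in 2 groups), 1 library stood apart by Dixon's criterion, which chance exceeds in about 1 of 20 such sets. The value given is the gap to the nearest library over the whole range. Krt8 was detected in control only in PSC5 replicate 2, with 2 counts (ratio 1). Mmp13 was highest in CM PSC4 replicate 2 (0.867), as was Col15a1 among the CM libraries (0.925). Cxcl1 was highest among controls in PSC4 replicate 1, at 11.2 CPM against 9.38 to 9.55 CPM (0.896). Adamts12 was highest among controls in PSC5 replicate 1 (0.717). Bub1 and Top2a were highest among controls in PSC5 replicate 2 (0.814 and 0.718).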

How the results depend on the processing

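The count of 1976 called genes (982 higher, 994 lower, 557 of at least 1 log2 unit) became 1959 with RLE size factors, 2090 with upper-quartile factors (783 higher, or 37.5% against 49.7%), 1573 without a filter, 1968 with a stricter filter, 2695 with DESeq2, 2764 with the 9 libraries alone, 1517 without the cell line term and 2543 without the replicate 1 libraries labelled PSC4. The pairing by replicate block gave 3240 (1647 higher, 1593 lower). Counting the replicate 1 libraries labelled PSC4 with PSC5 gave 2986 (1517 lower). The T6 libraries alone gave 358 (253 higher, 105 lower, 169 of at least 1 log2 unit) and the T8 libraries 1332 (638 lower). PSC4 alone gave 136 (114, 22 and 89) and PSC5 alone 2 (2, 0 and 2). Leaving out each library gave 801 to 1793 called, 466 to 915 higher, 335 to 912 lower, and 293 to 574 of at least 1 log2 unit; the line difference gave 0 to 1 calls and the code difference 0 to 0. No named gene reversed under any of these alternatives. Of 109 calls among the 112 named genes, 40 were lost on leaving out CM PSC5 replicate 1, 12 without the line term, 71 with the T6 libraries alone and 23 with the T8 libraries alone. The block changed the call of 1 named gene, Lif. The counts of called list members were recomputed under the same settings, an addition made after seeing the data. The cause of these shifts was not tested, and the subsets also hold fewer libraries. Depth limits the counts behind genes under 1 CPM, and 2 to 5 libraries a group limit every comparison.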

Other observations

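In the remaining 3 lists the share of tested members called was 13.3% for axon guidance, 25% for fibroblast surface state and 22.7% for ERK feedback. Over all genes tested it was 14.2%. Among 30 axon guidance genes 4 fell and 0 rose (median -0.25), 7 and 2 with the replicate block. Falls were 1 on leaving out CM PSC5 replicate 1 and 2 on leaving out CM PSC4 replicate 2 or control PSC5 replicate 1, and 1 gene rose on leaving out CM PSC5 replicate 2. Nrp1, neuropilin 1, a receptor of semaphorins and VEGF, was at 175, 229.8, 270.5, 170.1 and 169 CPM in control and 79.3, 101, 57.9 and 93.6 CPM in CM (log2 fold change -1.25 ± 0.20 SE, adjusted p = 0.00122, edgeR). Unc5c, a netrin receptor, and Efnb1, an ephrin, fell by 1.44 and 0.87. The Unc5c call was lost on leaving out CM PSC4 replicate 2, CM PSC5 replicate 1 or control PSC5 replicate 1 (adjusted p = 0.0533 to 0.0773) and the Efnb1 call on leaving out any library but CM PSC4 replicate 2, CM PSC5 replicate 2 and control PSC4 replicate 1 (adjusted p = 0.0524 to 0.0954). Among 20 genes of fibroblast surface state 4 rose and 1 fell (median 0.03), with 2 falls under the block or without the replicate 1 libraries labelled PSC4. Cd74, the invariant chain of MHC class II, was at 5.49, 3.18, 3.21, 7.004 and 3.90 CPM in control and 20.5, 34.96, 70.3 and 11.1 CPM in CM (log2 fold change 2.81 ± 0.59 SE, adjusted p = 0.00702). Pdpn, podoplanin, rose from control values of 163 to 233 CPM to CM values of 287 to 487 CPM and Has1, a hyaluronan synthase, from control values of 1.34 to 2.19 CPM to CM values of 2.55 to 8.61 CPM. Cd34 fell from control values of 31.8 to 40.3 CPM to CM values of 6.04 to 13.8 CPM (log2 fold change -1.67 ± 0.29 SE, adjusted p = 0.00203). Thy1, Fap, Pdgfra and Ly6c1 were not called (-0.19, -0.27, 0.03 and -0.11).

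ERK feedback genes rose in 4 of 22 and fell in 1 (median 0.14), 7 and 3 with the block, and 7 rose without the replicate 1 libraries labelled PSC4. Rises were 2 on leaving out CM PSC4 replicate 2, CM PSC5 replicate 1 or either PSC5 control library. Dusp6, the ERK phosphatase, was at 46.1, 50.4, 51.2, 46.8 and 52.2 CPM in control and 73.3, 88.1, 88.6 and 67.5 CPM in CM (log2 fold change 0.68 ± 0.14 SE, adjusted p = 0.00640), and Etv1, an ETS factor, at 26.2 to 32.4 and 49.03 to 70.3 CPM (log2 fold change 1.00 ± 0.22 SE, adjusted p = 0.00871). Spred3 rose by 0.50 ± 0.15 and Egr3 fell by 1.02. The Spred3 call was lost on leaving out any library but CM PSC5 replicate 2 and control PSC4 replicates 1 and 2 (adjusted p = 0.0592 to 0.0984) and the Egr3 call on leaving out any library but CM PSC4 replicate 1 and control PSC4 replicates 2 and 3 (adjusted p = 0.0662 to 0.108). Spred3 overlaps Ggn. Spry1, Spry2 and Spry4 were not called (-0.11, 0.45 and -0.03).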
